A study of Saccharomyces cerevisiae with 4 samples.

Results

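The 156 reading frames described here are the protein-coding frames of budding yeast chromosome III that remain after 31 frames are set aside by name. They were chosen from 6706 listed frames by systematic name, numbered outward from the centromere. Of them 63 lie on the left arm (YCL) and 93 on the right arm (YCR). Every frame with a known position within 1 kb of a tRNA gene is among those set aside, but some next neighbours farther off remain. RNA was measured in 4 libraries, 2 from the wild-type strain JRY2334 and 2 from the strain JKY690, called tDNA-less here. The labels of JKY690 give tRNA genes (tDNAs) of its chromosome III as deleted. Both strains are MATa haploids of the W-303 background that carry ade2-1, trp1-1 and ura3-1. The wild type further carries his3-11,15, leu2-3,112 and can1-100. The tDNA-less genotype lists the deletions t0D, t1D and t3D to t7D, the joint replacement t8D+t9D::LEU2, and T1+T7::HIS3. It lists no t2D, and whether any tRNA gene of chromosome III remains in this strain was not tested. Cells grew untreated in rich medium (YPD) to early log phase, and the replicates of a strain are biological ones per the labels. Each strain is a single strain, so loss of the tRNA genes cannot be told apart from the HIS3 and LEU2 insertions or from any other difference between these strains.

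Chromosome III is known as the mating-type chromosome of budding yeast. It carries the expressed locus MAT near the middle of the right arm and unexpressed copies of mating-type genes at HML near the left end and HMR near the right end, where Sir proteins keep chromatin silent. A tRNA gene is transcribed by RNA polymerase III from promoter elements inside the gene, the A box and the B box, and the tRNA gene beside HMR is a textbook barrier to the spread of silencing. The reference annotation (build R64) has 10 tRNA genes on this chromosome, 2 on the left arm and 8 on the right. Names and numbers held up against it. All 137 members with a position lay on the side of the centromere that their name gives. In all 44 left and 73 right pairs of neighbours in number order, the frame of higher number lay farther out. Frames with a suffix to their name, such as YCL001W-A, share a number with another frame or follow one, and were left out of this check of order. The other 19 members have no position here.

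Depth ranged from 12.5 M to 19.8 M estimated counts per library, of which the 4 frames ATG7, LTO1, MSK1 and YSH1, none of them on chromosome III, took 30.6% to 45.1%. Levels are therefore given as CPM, counts relative to library size as scaled by TMM, and levels of different genes are compared only per length, as TPM. The labelled mating type was borne out by markers. The 6 a-specific genes MFA1, MFA2, STE2, STE6, BAR1 and AGA2 lay between 29.5 and 18853 TPM in every library. The 4 alpha-specific genes MF(ALPHA)1, MF(ALPHA)2, STE3 and SAG1 lay between 0.286 and 13.8 TPM. Of the 6 a-specific and the 3 tested alpha-specific genes, 0 were called by edgeR and 0 had an unadjusted p under 0.05.

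Of the 132 members with enough counts to test, 1 fell and 0 rose in the tDNA-less strain, a share of 0.758%. The background was 1.5% of all 6205 frames tested, 0.693% lower and 0.806% higher (edgeR's quasi-likelihood test, adjusted p under 0.05 over all of them). The member that fell was YCL021W-A on the left arm, a frame of 378 bases whose protein is uncharacterized in the annotation. It had 22.8 and 23.2 CPM in wild-type replicates 1 and 2, and 0.0881 and 0 CPM in tDNA-less replicates 1 and 2. The libraries of the strains lay far apart, with 281 and 519 counts in wild type against 1 and 0. Pooled over libraries, the level was 602-fold lower in the tDNA-less strain, with a 95% interval of 108 to 23809 from counting error alone. The fitted log2 fold change was -8.95 ± 0.42 (SE; edgeR, adjusted p = 3.38e-06), and its size depends on the small count that the fit adds to a zero. The frame was tested only because the wild-type libraries carried it over the low-count filter. The call held in all 13 refits.

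YCL021W-A (chrIII:83620-83997, plus strand) is the only member with a position between the left arm's tRNA genes. It starts 1086 bases from the tRNA-Glu gene (chrIII:82462-82533, minus strand) and ends 6861 bases before the tRNA-Leu gene (chrIII:90859-90972, plus strand). A Ty2 retrotransposon, whose frames start 1104 bases further on, lies between YCL021W-A and the tRNA-Leu gene in the reference. Both tRNA genes are shown here as R64 has them, because they bracket the only called member, and that of tRNA-Thr (chrIII:295484-295556, plus strand) because it stands beside HMR. Capitals mark a match to GTTCNANNC, a short form of the B box, which was found in 270 of 275 nuclear tRNA genes.
tRNA-Glu gene: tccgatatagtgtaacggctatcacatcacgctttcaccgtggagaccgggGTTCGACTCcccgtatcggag
tRNA-Leu gene: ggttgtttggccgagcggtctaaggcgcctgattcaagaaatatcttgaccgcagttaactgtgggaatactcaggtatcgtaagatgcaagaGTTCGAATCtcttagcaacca
tRNA-Thr gene: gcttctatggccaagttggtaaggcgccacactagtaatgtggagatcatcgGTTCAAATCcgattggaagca
The window from 250 bases before to 50 bases after the start of YCL021W-A (chrIII:83370-83669, plus strand) follows, with its start codon in capitals. It is shown as the reference has it, because YCL021W-A is the only called member.
YCL021W-A start: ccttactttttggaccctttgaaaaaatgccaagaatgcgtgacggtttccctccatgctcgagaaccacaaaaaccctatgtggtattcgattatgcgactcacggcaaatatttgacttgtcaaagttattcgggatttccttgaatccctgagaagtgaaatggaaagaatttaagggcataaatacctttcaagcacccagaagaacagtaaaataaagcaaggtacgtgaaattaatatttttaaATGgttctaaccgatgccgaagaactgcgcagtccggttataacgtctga
GTTCNANNC was searched on both strands and was not in this window. It was in 9.33% of the 6001 windows of this length at nuclear protein-coding genes.

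Frames that flank YCL021W-A and were set aside by name give the local picture. The frames of the Ty2 element, YCL020W and YCL019W, had log2 fold changes of -2.19 ± 0.10 and -2.20 ± 0.14 (edgeR, adjusted p = 3.38e-06 and 4.39e-05). YCL020W went from 88.9 and 81.9 CPM in wild type to 19.9 and 17.5 CPM in the tDNA-less strain, and reads of Ty2 frames are divided with other Ty2 copies. LEU2, beyond the tRNA-Leu gene, had a log2 fold change of -1.12 ± 0.11. The wild type carries the allele leu2-3,112 and the tDNA-less strain an inserted LEU2. The strains thus differ in this gene itself, and its value cannot be read as that of an unchanged neighbour. KCC4, a kinase gene on the telomere side of the tRNA-Glu gene, had one of 0.20 and did not pass. The nearest members on either side did not pass. On the telomere side these are by number YCL022C, with -0.15 ± 0.39, and YCL023C, which had 0 to 14 counts and was not tested, neither with a position here. Estimated counts of YCL022C and KCC4 were not whole in any of the 4 libraries, so their values depend on how reads were divided. Among members with a position, FRM2, a nitroreductase gene and the nearest on the telomere side, had -0.22 ± 0.35, and DCC1, a cohesion gene on the centromere side, had -0.11 ± 0.19. The genotype label does not say which tRNA gene each deletion number stands for, also in the joint replacement t8D+t9D::LEU2, or what flanking sequence was removed. Whether YCL021W-A is present in the genome of the tDNA-less strain was not tested.

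**Figure D1:**
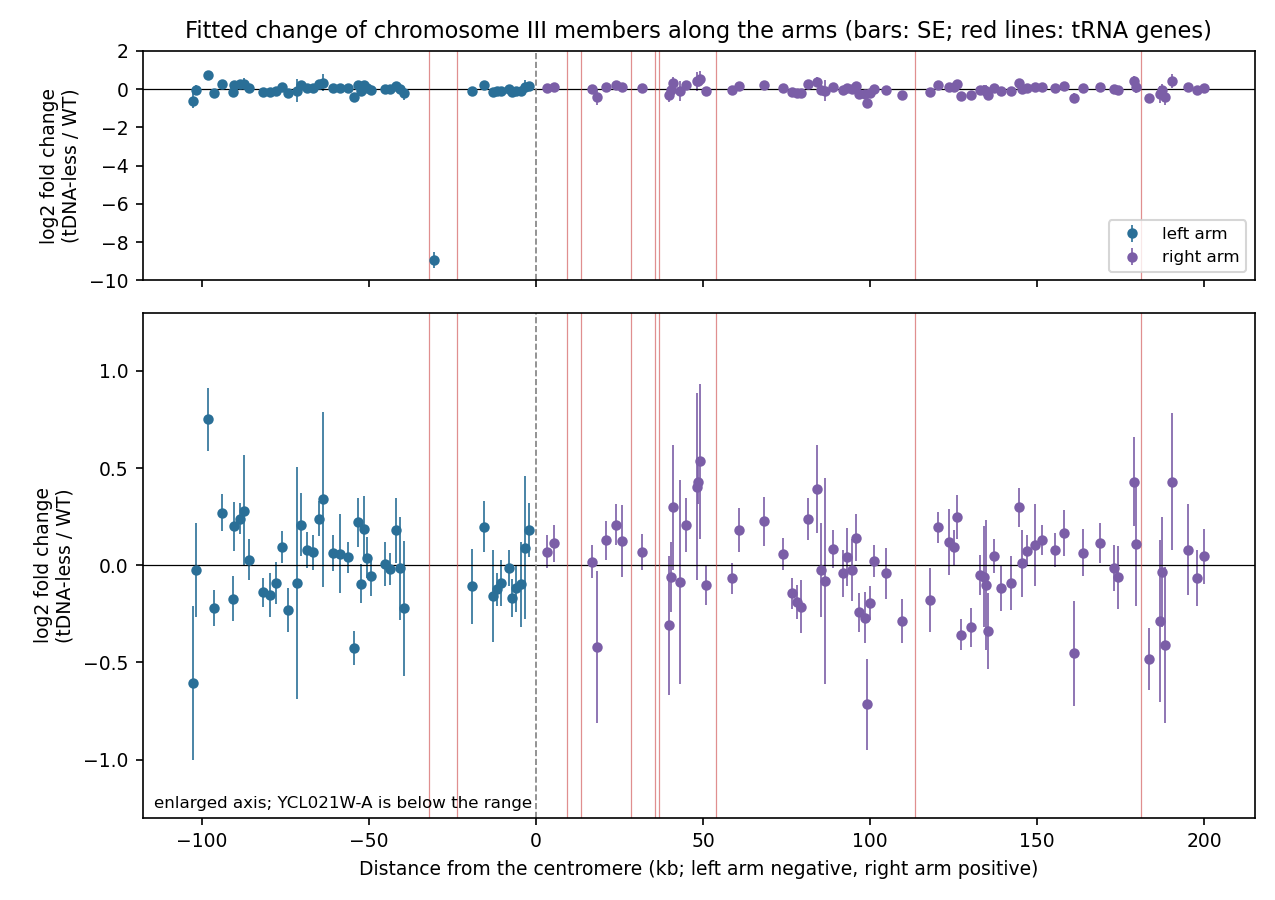
Log2 fold change (tDNA-less over wild type) of the tested members with a position, with its SE, against distance from the centromere in kb. The lower panel enlarges the axis, and red lines mark tRNA genes. YCL021W-A at -8.95 stands alone, and other members scatter on either side of 0 along both arms.

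The arms as wholes did not separate. On the left arm 1 of 51 tested members was called, on the right arm 0 of 81. The median log2 fold change was -0.016 on the left arm and 0.018 on the right, beside 0.003 over all frames tested. Both medians changed sign with a library left out, and on the scale of log2(TPM + 1), where the median of all frames was -0.11, the right-arm median was -0.093. Of the left-arm members 23 had a positive and 28 a negative fold change, and on the right arm the split was 42 to 39. The median absolute log2 fold change was 0.15 on the left and 0.13 on the right, where that of all frames was also 0.13. The spread between single libraries of a strain, which is wider than that of a difference between means of 2, gives a scale. The median absolute log2 difference between the wild-type libraries was 0.11 for left-arm and 0.14 for right-arm members, and between the tDNA-less libraries it was 0.15 and 0.14. No p is given for a value summed over members, and with 2 libraries per strain no exact permutation test can go below 0.333.

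The precision of single members bounds what could be missed. For 91 of the 132 tested members, 68.9%, the 95% interval of the change lay within 1.5-fold either way, beside 68.6% of all frames. For 108 members it lay within 2-fold either way, which is 81.8% beside 87.9% of all frames. The libraries of the strains did not overlap for 58 members, 29 higher and 29 lower, a share of 43.9% beside a background of 42.9%. An unadjusted p under 0.05 was found for 18 members, 13.6% beside 11.8% of all frames. DESeq2 called 2 members, beside 117 of all 6205 frames, and limma-voom 1, beside 97.

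Summed counts of each arm moved little. Outside the 4 dominant frames, left-arm members took 0.416% and 0.417% of counts in wild type and 0.409% and 0.421% in the tDNA-less strain. Right-arm members took 0.919% and 0.962% in wild type against 0.966% and 0.992% in the tDNA-less strain. The right-arm shares were higher in both tDNA-less libraries, but not once PGK1 was left out. Without PGK1 the right-arm shares were 0.625% and 0.616% in wild type against 0.625% and 0.61% in the tDNA-less strain. There the groups overlapped. YCR013C, the next frame by number, stayed in these shares. Estimated counts of both PGK1 and YCR013C were not whole in any of the 4 libraries. Their reads were thus divided with other frames, and which frames these are was not tested. PGK1, the phosphoglycerate kinase of glycolysis (chrIII:137746-138996, plus strand), had 1800 and 2122 CPM in wild type against 2136 and 2395 CPM in the tDNA-less strain. Its log2 fold change was 0.21 ± 0.11, with an interval of -0.03 to 0.45, and it did not pass.

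Along the arms the medians stayed near 0. In 25 kb steps outward from the centromere, left-arm medians were -0.10, -0.02, 0.06, 0.06 and -0.32, the last from only 2 tested members. Right-arm medians over the same steps ran from 0.17, between 25 and 50 kb with 10 tested members, to -0.06, between 75 and 100 kb with 16. Spearman's rho between log2 fold change and distance from the centromere was 0.16 over 47 left-arm members and -0.13 over 76 right-arm members, as a description across genes of the same libraries. Grouped by the gap to the nearest tRNA gene, the medians were -0.06 for 19 tested members at 1 to 5 kb and 0.12 for 21 at 5 to 10 kb. They were -0.04 for 36 at 10 to 20 kb, 0.06 for 32 at 20 to 40 kb and -0.03 for 15 farther out, all of these on the left arm. The arms differ in this layout, with a median gap of 26.8 kb on the left and 12.8 kb on the right.

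Beyond YCL021W-A, a handful of members came near the threshold without passing it, and their levels are plotted by library. GFD2, a multicopy suppressor linked to messenger RNA export (chrIII:59026-60726, plus strand), had 94.9 and 98.1 CPM in wild type against 67.3 and 76 CPM in the tDNA-less strain. All tDNA-less values lay below all wild-type values, with a log2 fold change of -0.43 ± 0.09 (adjusted p = 0.0544, edgeR). GFD2 was called by DESeq2 (adjusted p = 0.028) and when frames with a mean under 50 counts were left out (edgeR, adjusted p = 0.0411). Over 13 refits its adjusted p ranged from 0.00428 to 0.584, passing in 3.

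CHA1, the serine and threonine deaminase induced by these amino acids (chrIII:15798-16880, minus strand), had 9.65 and 10.4 CPM in wild type against 16.4 and 17.5 CPM in the tDNA-less strain. The libraries did not overlap, and the log2 fold change of 0.75 ± 0.16 (adjusted p = 0.0635, edgeR) was the largest positive one among members whose mean log2 CPM reached 3. It was positive in all 13 refits and passed in 1. RSA4, an assembly factor of the large ribosomal subunit (chrIII:240805-242352, minus strand), had 103.0 and 102.6 CPM in wild type against 82 and 78.5 CPM in the tDNA-less strain. Its log2 fold change was -0.36 ± 0.08 (edgeR, adjusted p = 0.0709). PMP1, a small regulatory protein of the plasma membrane proton pump (chrIII:162945-163067, minus strand), had 83.5 and 73.6 CPM against 117 and 94.2 CPM, with a log2 fold change of 0.43 ± 0.11 (adjusted p = 0.138, edgeR). The tDNA-less values of PMP1 were the higher ones but spread widely, with an SD of 16.2 CPM (n = 2). YCR087W, which has no annotation here, had 67.3 and 67.9 against 52.6 and 54.7 CPM (edgeR, adjusted p = 0.116). YCR087C-A, the annotated frame of the same number, was listed at 0 in all libraries. Whether its reads were credited to YCR087W was not tested.

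**Figure D2:**
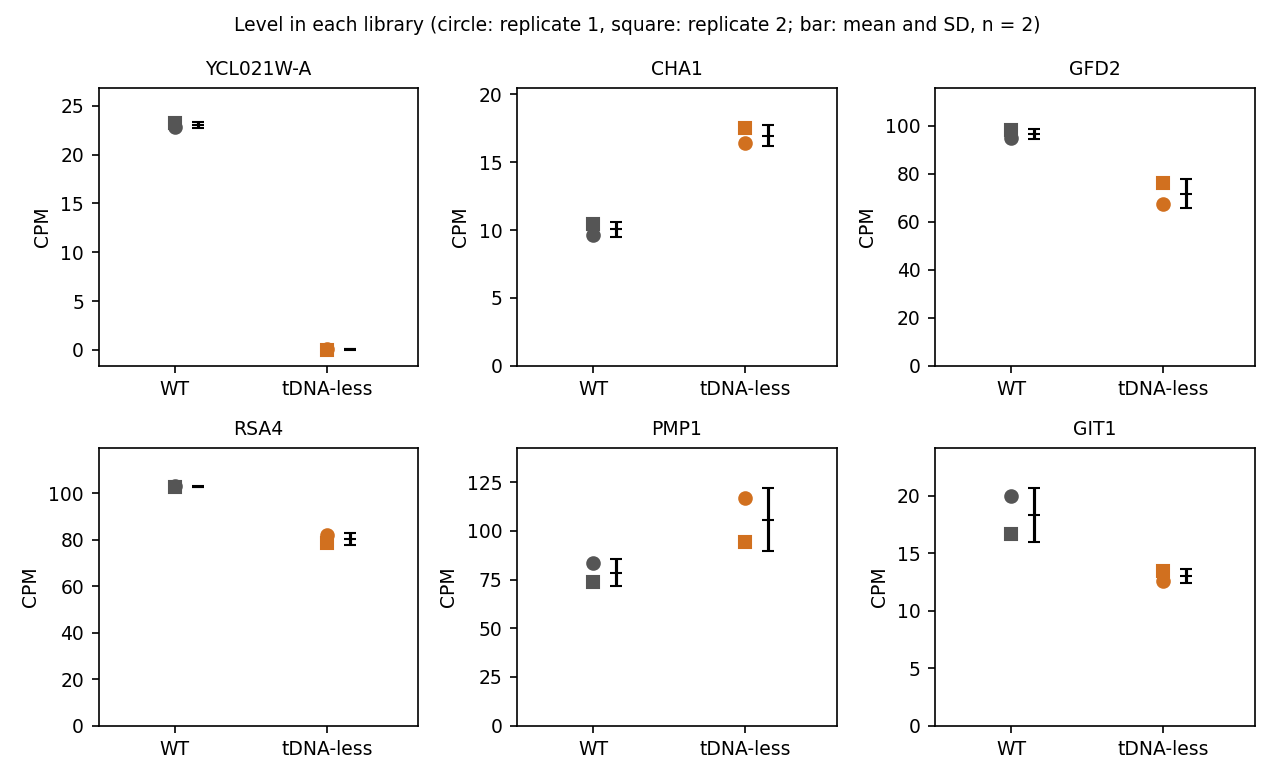
CPM of 6 members in each library, with mean and SD (n = 2). YCL021W-A is at or near 0 in both tDNA-less libraries, while CHA1, GFD2, RSA4, PMP1 and GIT1 differ by less than 2-fold and did not pass the test.

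The frames of the mating-type loci lie at HML, MAT and HMR. HMLALPHA1 at HML (chrIII:13282-13809, plus strand) encodes the alpha1 activator, and the reference, which is MATalpha, repeats it at MAT as MATALPHA1 with 100% of its 31-base words in common. In a MATa strain alpha1 is present only at HML. Each copy was listed at 0 in both wild-type libraries, and at 1.5 and 1 estimated counts in tDNA-less replicates 1 and 2. Both strains were thus at the limit of detection, so no fold is given. HMLALPHA2 at HML and MATALPHA2 at MAT, the alpha2 repressor frames, also match each other in full and were given the same values, 5.88 and 7.12 CPM in wild type against 6.55 and 6.27 CPM in the tDNA-less strain. Of the words of HMLALPHA2, 54.7% recur in HMRA2, so reads of the a2 frame at MATa cannot be told apart from alpha2 there. Their log2 fold change was -0.03 ± 0.24.

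At HMR, HMRA1 (chrIII:293835-294321, plus strand) encodes the a1 homeodomain protein, which MATa cells also express from MAT, and the tables cannot tell HMR from MAT. It had 11 and 6.85 CPM in wild type against 12.2 and 6.92 CPM in the tDNA-less strain. The spread within each strain exceeded the difference between strains, with a log2 fold change of 0.11 ± 0.32 and an interval of -0.61 to 0.83. Its sign turned when wild-type replicate 2 (-0.22) or tDNA-less replicate 1 (-0.35) was left out. HMRA2 had 6.65 and 6.84 CPM against 10.3 and 8.06 CPM, which did not overlap, and a log2 fold change of 0.43 ± 0.23 (adjusted p = 0.505, edgeR). Of the 31-base words of HMRA2, 100% recur in HMLALPHA2, and its estimated counts were not whole in any of the 4 libraries. Its values thus depend on how shared reads were divided and cannot be placed at HMR. Of the 4 tested frames of these loci 0 were called. The silencing genes SIR1, SIR2, SIR3 and SIR4 had log2 fold changes of 0.61, -0.21, -0.02 and 0.13. Of these 4, 0 were called, and SIR1 had an unadjusted p under 0.05 (edgeR, adjusted p = 0.345).

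**Figure D3:**
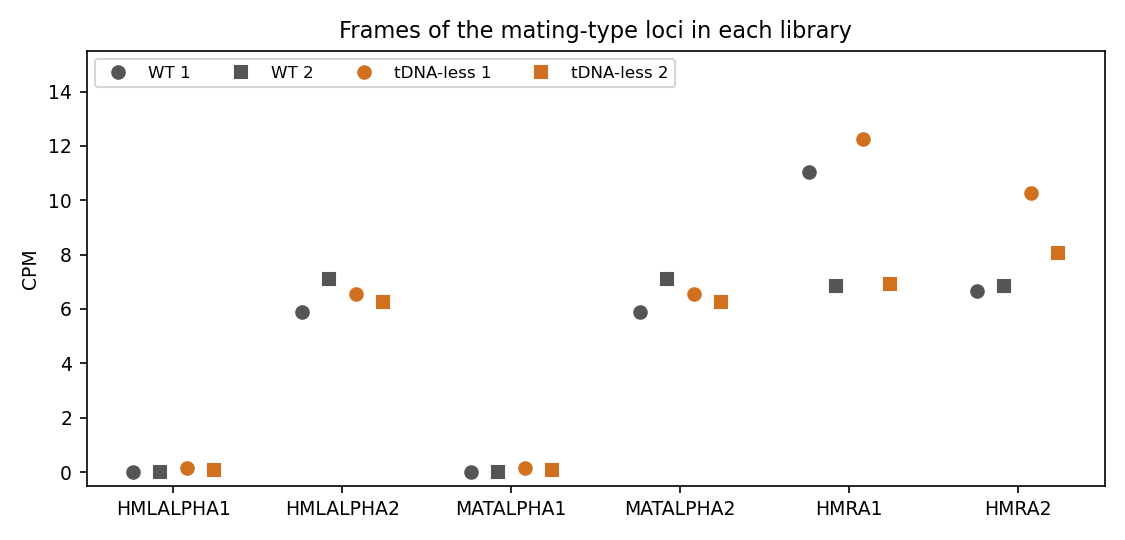
CPM of the 6 mating-type frames in each library (circles: replicate 1, squares: replicate 2). The alpha1 frames lie at or near 0 in all libraries, the alpha2 frames and HMRA1 overlap between strains, and HMRA2 is higher in both tDNA-less libraries.

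Members beside the silent loci did not pass. GIT1, a transporter of glycerophosphoinositol (chrIII:297049-298605, minus strand), lies 1492 bases beyond the tRNA-Thr gene, on the side away from HMR. It had 20 and 16.7 CPM in wild type against 12.6 and 13.5 CPM in the tDNA-less strain. Both tDNA-less values were the lower ones, and the log2 fold change was -0.48 ± 0.16, with an interval of -0.84 to -0.13 (edgeR, adjusted p = 0.24). It was negative in all 13 refits, with adjusted p from 0.104 to 0.707. At the other end, the 3′ end of CHA1 lies 1988 bases from HMLALPHA1. Between 15 and 30 kb from the left end, 4 of 8 tested members had an unadjusted p under 0.05, beside 11.8% of all frames, and 0 were called. Apart from CHA1 these were MRC1, a mediator of the replication checkpoint (0.27 ± 0.09), PRD1, the peptidase saccharolysin (0.24 ± 0.08), and VAC17, the vacuole adaptor of the myosin motor (-0.22 ± 0.09). Between 15 and 30 kb from the right end, the count was 1 of 6 tested members, and that was GIT1. Within 15 kb it was 0 of 2 at the left end and 0 of 6 at the right. Between 30 and 60 kb it was 2 of 15 on the left and 1 of 10 on the right, and farther in 1 of 22 and 7 of 54.

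The outermost members by number were near or at 0 on the left. YCL074W had 2 counts in wild-type replicate 1 and 0 elsewhere, and YCL075W and YCL076W were listed at 0 in all libraries. On the right, YCR108C had 2 to 10 counts. AAD3, a putative aryl-alcohol dehydrogenase, and RDS1, a zinc cluster protein, were measured there with log2 fold changes of 0.05 ± 0.14 and -0.06 ± 0.14. Next to the centromere the picture was as flat. RER1, a receptor that returns membrane proteins to the endoplasmic reticulum, had 0.18 ± 0.14 on the left. CDC10, a septin, and YCP4, a flavodoxin-like protein, had 0.07 ± 0.09 and 0.11 ± 0.10 on the right. YCL001W-A, YCL001W-B and YCR001W, the frames nearest the centromere, had 2 to 20 counts per library and were not tested.

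Grouped by what their products do, 89 members fall into 10 role lists, and 0 members of any list were called. DESeq2 called GFD2 alone among them. The mating and pheromone response list had 4 tested members with a median of 0.06. FUS1, a cell fusion protein induced by pheromone, had 11.3 and 12.9 CPM in wild type against 13.9 and 13.6 CPM in the tDNA-less strain, a log2 fold change of 0.18 ± 0.17. FIG2, a mating adhesin, had 0.08 ± 0.09, and the adaptor STE50 and the regulator KAR4 had 0.04 and 0.03. All 4 fold changes were positive, beside 50.6% of all frames. For 3 of the 4 (FUS1, FIG2 and KAR4) both tDNA-less values lay above both wild-type values, beside 22.0% of all frames. The interval of FUS1 ran from -0.20 to 0.55.

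The list of ribosome assembly and RNA binding had the lowest median of the 10, -0.14 over 9 tested members, beside 0.003 over all frames. Fold changes were negative for 7 and positive for 2, which is 22.2% positive beside 50.6% of all frames. An unadjusted p under 0.05 was found for 33.3% of the list, beside 11.8% of all frames, and 0 were called. These members were GFD2 and RSA4, given above, and BUD23, a methyltransferase of the small subunit RNA (-0.24 ± 0.10). SPB1, a methyltransferase of the large subunit RNA, had -0.14, RRP43, an exosome subunit, -0.19, and RRP7, a processing factor, -0.06. PAT1, a decapping activator, and SRO9, an RNA-binding protein, had 0.05 and 0.04.

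In the chromatin and transcription list, 9 tested members had a median of 0.08. AHC2, a subunit of the ADA acetyltransferase complex (chrIII:258883-259269, plus strand), had 33.1 and 33.5 CPM in wild type against 42.3 and 39.6 CPM in the tDNA-less strain. These did not overlap, with a log2 fold change of 0.30 ± 0.10 (adjusted p = 0.242, edgeR). HTL1, a subunit of the RSC remodeller, had 0.30 ± 0.32, and its libraries overlapped. TUP1, the general corepressor, had 269 and 271 CPM in wild type against 272 and 297 CPM in the tDNA-less strain, and its log2 fold change was 0.07. The other members of this list, SNT1, RSC6, TAF2, SRB8, SGF29 and CDC39, lay between -0.09 and 0.11.

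In the list of bud site, septin, actin and microtubule genes, 9 tested members had a median of 0.07. BUD5, an exchange factor of bud site choice, had the largest change, 0.39 ± 0.23, and shares 36.1% of its words with other frames. VAC17 was the only member of this list with an unadjusted p under 0.05. In the list of DNA replication, repair and segregation, 6 tested members had a median of 0.08. MRC1 had 35.5 and 34.5 CPM in wild type against 42.3 and 42 CPM in the tDNA-less strain, and RAD18, a ubiquitin ligase of damage tolerance, had -0.18 ± 0.16.

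In the mitochondrial list, 8 tested members had a median of 0.04 and 0 had an unadjusted p under 0.05. IMG2, a mitochondrial ribosomal protein, had 22 and 22.5 CPM against 25.6 and 27.2 CPM, with a log2 fold change of 0.25 ± 0.11. MIC10, a shaper of inner membrane folds, had 0.20 ± 0.13. The secretory, vacuole and lipid list had 17 tested members with a median of 0.04. After PMP1 the largest change there was that of ARE1, a sterol acyltransferase, -0.27 ± 0.13. PDI1, the disulfide isomerase of the endoplasmic reticulum, had 522 and 571 CPM in wild type against 608 and 682 CPM in the tDNA-less strain, a log2 fold change of 0.24 ± 0.09 (adjusted p = 0.309, edgeR). VMA9, a proton pump subunit of the vacuole, had -0.17 ± 0.10.

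Metabolic enzymes and membrane transporters had a median of 0.09 over 10 tested members, with CHA1 and GIT1 as the largest changes in opposite directions. The permease-like VBA3 and GEX1 were listed at 0 in all libraries, and share 82.2% and 73.2% of their words with other frames. The list of redox, stress and protein turnover had a median of 0.02 over 8 tested members. SSK22, a kinase of the osmotic stress cascade, had 34.1 and 34.1 CPM in wild type against 27.3 and 27.3 CPM in the tDNA-less strain, a log2 fold change of -0.32 ± 0.10 (adjusted p = 0.222, edgeR). PRD1 had 65 and 68.2 CPM against 78.9 and 78.6 CPM.

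**Figure D4:**
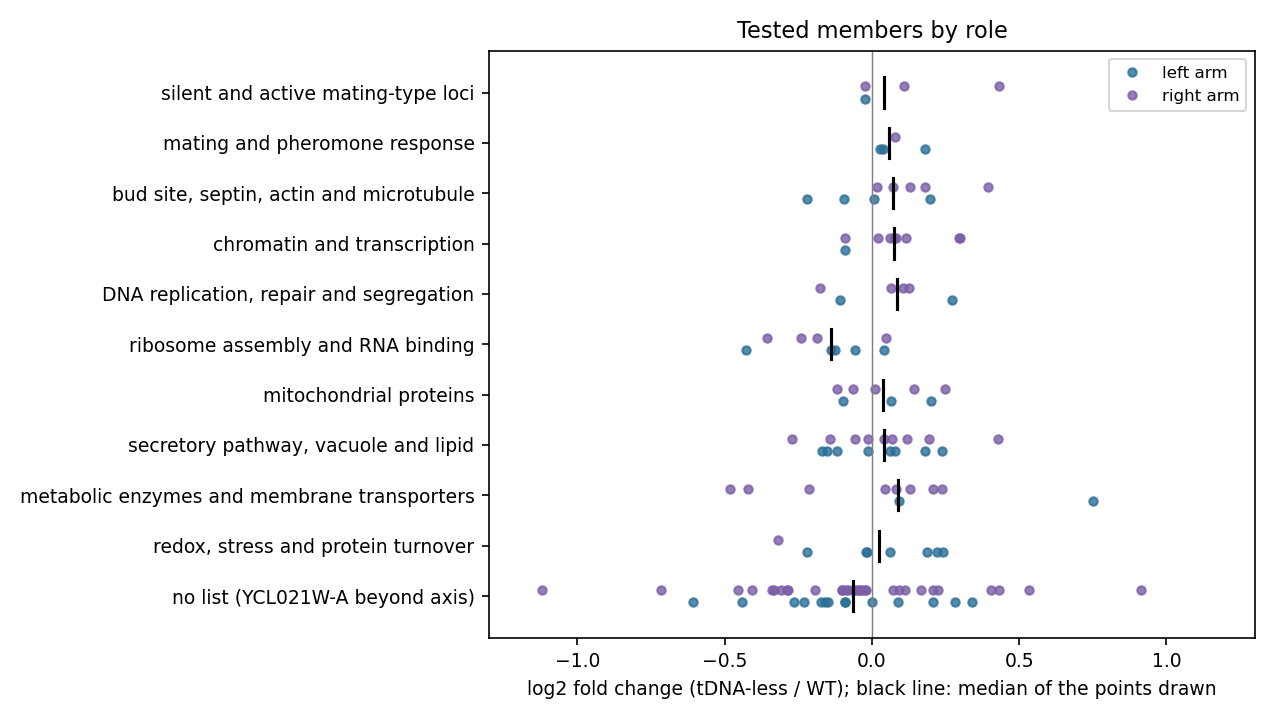
Log2 fold change (tDNA-less over wild type) of each tested member by role list and arm, with the median of the points as a black line and YCL021W-A beyond the axis. Medians lie between -0.14 and 0.09 in the 10 lists, and members of both arms mix within each.

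The 67 members in no list hold most frames without a gene name, and 48 of them were tested, with a median of -0.07. YCL021W-A was the 1 called. Others with an unadjusted p under 0.05 were YCR049C, YCR050C, YCR087W and YIH1, an inhibitor of Gcn2 activation (-0.29 ± 0.11). YCR049C, which has no position here, had 15 and 9.15 TPM in wild type against 6.09 and 4.18 TPM in the tDNA-less strain. Its estimated counts, not scaled to library size, were 72.8 and 76.2 against 28.8 and 24.7. These were not whole in any of the 4 libraries. Its log2 fold change was negative in all 13 refits, from -1.49 to -0.70, and it passed in 0 of them. YCR050C had 8.17 and 10.6 CPM against 5.92 and 5.63 CPM, with a log2 fold change of -0.72 ± 0.23 (adjusted p = 0.24, edgeR). It overlaps ARE1 and shares 96.1% of its words with other frames, so its reads cannot be told apart from those of ARE1. Some small frames varied more within than between strains. YCR024C-B, next to PMP1, had 50.1 and 19.3 CPM in wild type against 67.2 and 23.2 CPM in the tDNA-less strain, with replicate 1 high in both. YCL046W had 6.48 and 12.7 CPM in wild type against 6.98 and 7.43 CPM, with a log2 fold change of -0.44 ± 0.31, and the wild-type libraries differed by more than the strains. FUB1, a proteasome-associated protein, had -0.34 ± 0.20, and its libraries did not overlap.

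Levels per length were alike on both arms. The median TPM of left-arm members was 15.9 in wild type and 15.1 without the tRNA genes, and of right-arm members 14.4 and 13.1. Of the left-arm members 5 exceeded a mean of 100 TPM, of the right-arm members 10. The highest on the left were VMA9 (455 TPM), PDI1 (292 TPM) and MIC10 (182 TPM). The highest on the right were PMP1 (4087 TPM), PGK1 (1345 TPM) and YCR013C (885 TPM), and the TPM of PMP1 rests on a frame of only 123 bases. YCR013C has no position here. Its estimated counts and those of PGK1 were not whole in any of the 4 libraries, so its TPM may not be that of a separate gene. Members with a position had a median GC content of 41.1% on the left and 39.6% on the right, beside 39.7% for all nuclear protein-coding genes.

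**Figure D5:**
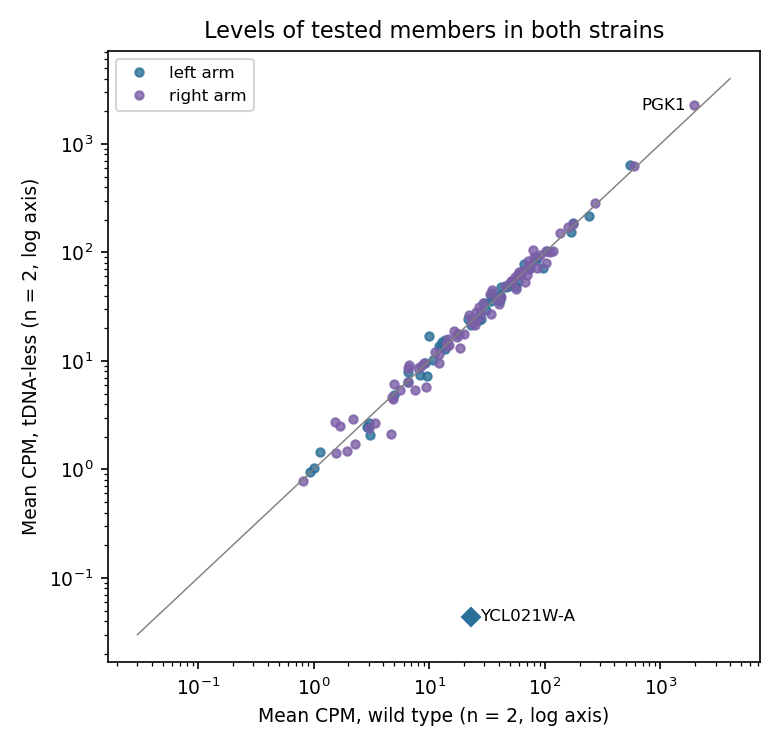
Mean CPM of tested members in tDNA-less against wild type on log axes (n = 2 each), with the line of equal levels. Members of both arms follow the line from about 1 CPM to PGK1, and YCL021W-A lies far below it.

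At the low end, 11 members were listed at 0 in all libraries, 6 on the left and 5 on the right. They include ADF1, all of whose 31-base words recur on the other strand in the overlapping FYV5. FYV5 was measured with a log2 fold change of -0.17, and the strand setting of the counting is not given in the sources used here. Estimated counts were not whole in at least 1 library for 31 members, which shows that reads were divided with other frames.

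Of the 31 chromosome III frames set aside by name, 7 were called, 3 higher and 4 lower. They were YCL019W, YCL020W and LEU2 on the left arm, and SAT4, CIT2, TVS1 and YCR064C on the right arm. The share called was 22.6% among these frames and 0.758% among the tested members, beside 1.5% of all frames tested. Frames were set aside with earlier results of these data known, so these shares are not independent of that choice. No test of them is given.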

How the data were processed

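RNA from 4 libraries of 2 strains was compared. The authors' deposited tables give, per library and reading frame, an estimated count and a TPM value in kallisto's format, per the file headers. The submitters' processing notes name kallisto, sleuth and build sacCer3. No version, index or strand setting is given in the sources used here. Deposited TPM values are estimated counts divided by effective length and scaled to a fixed total. Estimated counts were rounded, filtered with edgeR's filterByExpr (minimum 10 counts), scaled by TMM and tested with edgeR 4.0.16 (R 4.3.3), quasi-likelihood, two-sided, Benjamini-Hochberg over 6205 frames, called at 0.05. SE is the absolute log2 fold change over the square root of F. Intervals cover 95%. Counting intervals (Clopper-Pearson) cover counting error only. Depth was 12.5 M to 19.8 M, and the biological coefficient of variation 9.82%. The libraries of a strain differed by more than counting noise (chi-square per degree of freedom 62.8 and 45.9) and were kept separate. The script was tested on simulated data. Positions, names and sequences are from R64 (RefSeq), the assembly that sacCer3 names. W-303 can differ from it.

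The members and lists were chosen with earlier results of these data known. Named genes are the called members, the mating-type frames, in each arm the 3 members highest in TPM, nearest the centromere and nearest the end, the 3 largest rises and falls with mean log2 CPM of at least 3, and the 2 largest changes in each list. YCR087W, YIH1, YCR049C, YCR050C, SED4, BUD23, FYV5, ADF1, VBA3, GEX1 and other members of a list were added after their values were seen. Alternatives were DESeq2 1.42.0, limma 3.58.1 (voom, and log2(TPM + 1) and log2(TPM + 0.1)), other scalings and filters, the replicate block and leaving out each library.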

Additional observations from a re-analysis of the deposited data

How the results depend on the processing

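YCL021W-A was called in each of 13 refits, and 0 other members were called in 10 of them. With a mean of at least 50 counts, or with DESeq2, 2 members were called, both on the left arm (YCL021W-A and GFD2). Those settings called 97 of 5643 and 117 of 6205 frames in all. All frames called numbered 21 to 91 when a library was left out, lowest without tDNA-less replicate 1, and 52 and 39 on the scales of log2(TPM + 1) and log2(TPM + 0.1). The left-arm median log2 fold change ranged from -0.046 to 0.030 when a library was left out, the right-arm median from -0.022 to 0.046, and left minus right from -0.026 to 0.011. Left minus right was -0.034 over all libraries and -0.057 over members with no overlapping annotated frame. On log2(TPM + 1) the medians were -0.115 on the left and -0.093 on the right, and on log2(TPM + 0.1) -0.128 and -0.094. The median of all frames was -0.11 and -0.12 there, so relative to it the arms moved by at most 0.03. With the replicate number as a block, 282 frames and 8 members passed, 4 on each arm (YCL021W-A, CHA1, GFD2, PDI1, RSA4, PGK1, PMP1 and YCR087W). Same-numbered libraries deviated together with a correlation of 0.24, but with only 2 pairs they share only a number. The cause of these differences was not tested. Of 455 other comparisons of named genes with an alternative, 434 kept their side of the threshold and did not change sign by more than the SE, and 8 passed only under the alternative. The other 13 changed sign by more than the SE without a call, those of YCL046W, YCR024C-B, HMRA1, HTL1 and RAD18 with a library left out and those of CDC10, YCR013C and FIG2 on the TPM scales, and 0 lost a call. With 2 libraries per strain, depth limits members below about 10 counts, which were not tested.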
